A study of Homo sapiens with 18 samples.

Results

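The comparison was between cell lines before any inhibitor. It used 6 of the 18 libraries of the study: 3 from cells labelled XG1 and 3 from cells labelled AMO1, all kept for 24 h in DMSO, the vehicle. Both are labelled as multiple myeloma lines, grown in RPMI medium with fetal bovine serum in multiwell plates, with no genotype, clone or added cytokine stated. The other 12 libraries came from the same lines in 100 nM or 1000 nM of YKL-5-124, an inhibitor of the kinase CDK7. They share the gene filter and the error estimate of the fit with the DMSO libraries, and the difference between the lines was also measured at each dose. Messenger RNA was read near its 3′ end (QuantSeq), and the deposited values were given as FPKM. By definition these are fragments scaled to gene length and library total. Here their sums differed between libraries, and a further rescaling to the added spike-in RNAs appears likely but is not described. XG1 is known as a myeloma line that depends on interleukin-6, and AMO1 as a plasmacytoma line. The data went against the label of the first group: the libraries labelled XG1 held the genes that define plasma cells at low levels, with 5 of 10 such markers under 1 FPKM in all 3. They are called XG1 below only after their label, and no cell type is assigned to them.

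Myeloma arises from plasma cells, the antibody-secreting end stage of the B cell lineage. Textbook plasma cells are held in that state by the transcription factors IRF4, PRDM1 and XBP1, carry the surface proteoglycan SDC1, and enlarge the endoplasmic reticulum to fold and export antibody. Red cell precursors rest on another set of factors, GATA1, TAL1, LMO2, LDB1 and KLF1, which act together on the globin and red cell membrane genes. In those precursors the erythropoietin receptor signals through the kinase JAK2 to STAT5, whose targets include the feedback inhibitors CISH and SOCS2 and the kinase PIM1.

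Values were tested as log2(FPKM+1) with limma, and a gene was called at a Benjamini-Hochberg adjusted p under 0.05 over all 12792 genes that reached 1 FPKM in at least 3 of the 18 libraries. Every difference is XG1 minus AMO1. Most of the transcriptome differed: 5754 genes (45.0%) were higher and 2538 (19.8%) lower in XG1 on the deposited scale. These are the shares to hold beside any count below. The median tested gene lay 0.42 higher in XG1 (log2), although summed FPKM of all genes was 1315368 ± 103067 in XG1 and 1515077 ± 62531 in AMO1 (SD, n = 3 each; exact permutation test, two-sided p = 0.1, the smallest that 3 against 3 allows). Each result is therefore also given on a relative scale, after division of each library by a median-ratio size factor. There 4137 genes (32.3%) were higher and 4279 (33.5%) lower, and the median difference was 0.01. Of these, all 4137 higher in XG1 and 2532 of those lower were also called in that direction on the deposited scale. 0 genes were called in opposite directions. Both scales rest on the same libraries, and the relative differences lie lower by a median of 0.47 (log2). This overlap follows largely from that shift and is not independent support. The groups did not overlap in 9477 genes (74.1%). Spearman correlations were 0.969 to 0.979 within a line and 0.694 to 0.709 between lines. A group of genes reached the filter through whichever line held it, so counts over tested members describe a list and do not show that it stands apart. The floor of a library is the value it lists most often, and a gene is said to be at the floor where its value is no more than 5% above it. Where a gene was at the floor in all 3 libraries of a group, no fold is given. In such bulk samples, fewer cells of a type and less RNA per cell cannot be told apart. FPKM from 3′ reads do not allow levels of different genes to be compared.

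The largest differences were of an on-and-off kind. On both scales 483 genes were higher in XG1 and 272 lower by a log2 difference of 3 or more, and for a difference of 5 or more the counts were 124 and 73. At 50 FPKM or more in every XG1 library and under 1 FPKM in every AMO1 library stood 57 genes, and the reverse held for 17. Marker genes showed where these lay. Of 10 plasma cell markers, 10 were lower in XG1 on both scales, with a summed level of 91.6 to 145 FPKM in XG1 libraries and 8363 to 9397 FPKM in AMO1 libraries. Of these, 5 were under 1 FPKM in all 3 XG1 libraries, so they passed the filter through AMO1 and their direction was set by it. Of 10 erythroid markers 9 were higher, all but the erythropoietin receptor EPOR, with sums of 4754 to 5159 FPKM in XG1 and 6.81 to 9.33 FPKM in AMO1. In AMO1, 7 of those 10 were under 1 FPKM in all 3 libraries and GATA1 was at the floor. Those 7 passed the filter through XG1, and their direction was set by it. Myeloid markers summed to 127 to 150.2 FPKM in XG1 and 0.716 to 1.51 FPKM in AMO1. The 4 tested of 7 listed, ITGAM, CD33, LYZ and SPI1, were higher. All 7 were under 1 FPKM in AMO1, so these 4 passed the filter through XG1 alone and their direction was set by it. CD14, MPO and CSF1R were not tested and stayed under 1 FPKM in all 6 libraries. Epithelial markers summed to 164 to 195 FPKM in XG1 and 2.34 to 3.24 FPKM in AMO1. Stromal markers stayed under 1 FPKM gene by gene in all 6 libraries. The part that a mixture of cells has in these values was not tested.

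**Figure D1:**
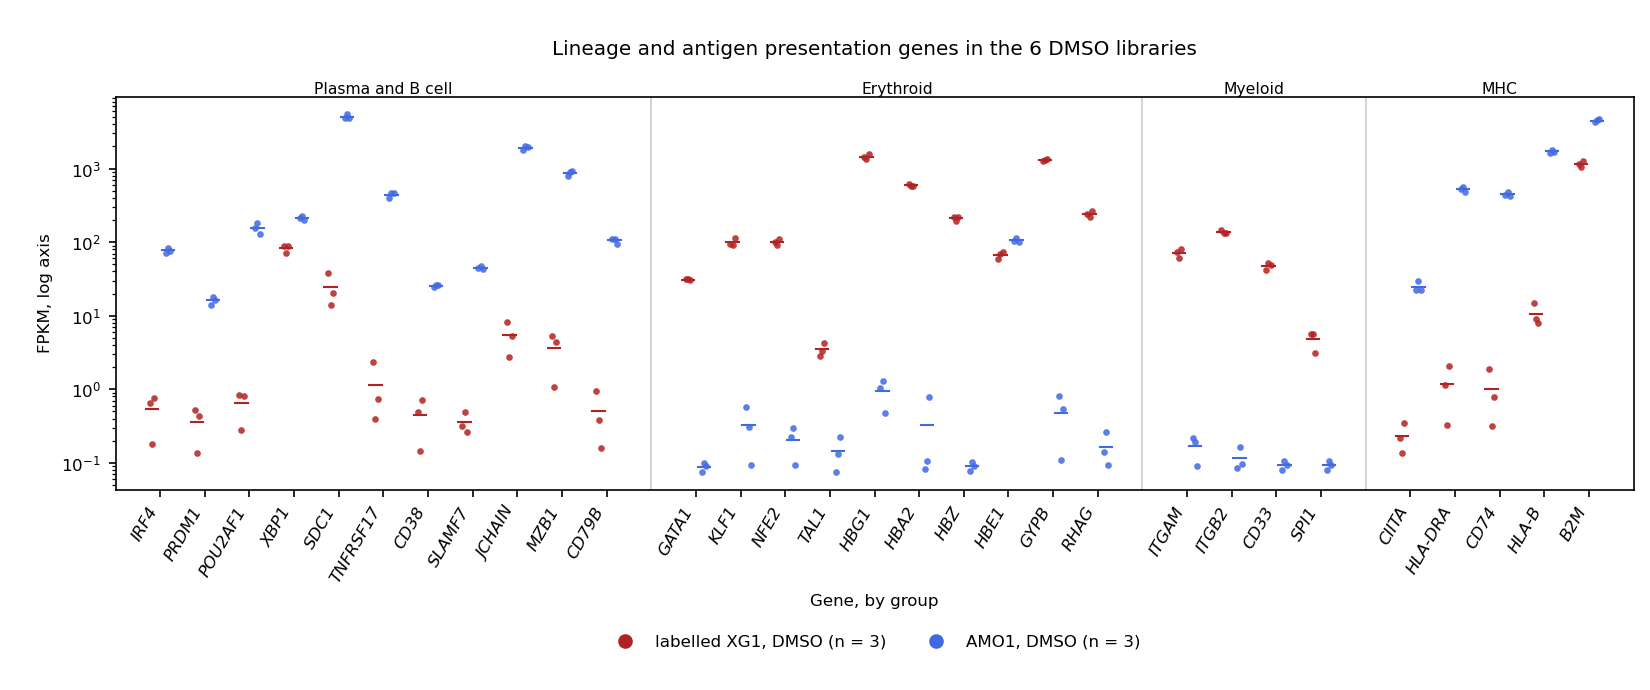
FPKM on a log axis of lineage and antigen presentation genes in each DMSO library (points) with the group mean (line), XG1 in red left of AMO1 in blue. Plasma cell and MHC genes stand high in AMO1, erythroid and myeloid genes in XG1, and HBE1 is the globin gene shown with AMO1 above XG1.

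Most transcription factors of the plasma cell were low or near absent in XG1. Of 16 listed genes 12 passed the filter, 0 higher and 11 lower in XG1 (on the relative scale 0 and 11, median log2 difference there −2.50). IRF4, which plasma and myeloma cells need, stood at 0.651, 0.181 and 0.767 FPKM in XG1, against 71.9, 84 and 76.7 FPKM in AMO1. Every XG1 library was under 1 FPKM and the groups lay far apart (log2 difference −5.70, SE 0.18, adjusted p = 4.2e-14, relative −5.82). POU2AF1, the coactivator of antibody gene promoters, differed further, at 0.826, 0.284 and 0.815 FPKM in XG1, against 157, 181 and 127 FPKM in AMO1. PRDM1, which shuts off the B cell program, stood at 0.516, 0.136 and 0.434 FPKM in XG1, against 13.9, 18 and 16.5 FPKM in AMO1. SPIB, an ETS factor of B cells, averaged 0.522 ± 0.161 FPKM in XG1, against 10.9 ± 0.815 FPKM in AMO1 (SD, n = 3 each, here and below). XBP1, the driver of secretory expansion, was the exception in size: it kept 82.6 ± 9.15 FPKM in XG1, against 214 ± 14.8 FPKM in AMO1 (log2 difference −1.36, SE 0.17, adjusted p = 2.7e-06, relative −1.88). BCL6, the germinal centre repressor, was low in both lines (0.512 FPKM in XG1 and 0.28 FPKM in AMO1) and was not called.

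Plasma cell surface genes followed the same direction with exceptions. The list had 16 tested genes of 23, with 3 higher and 12 lower in XG1 (on the relative scale 2 and 12, median log2 difference there −2.85). SDC1 stood at 38, 14.1 and 20.6 FPKM in XG1, against 4850.3, 5440.1 and 4909 FPKM in AMO1 (log2 difference −7.76, SE 0.39, adjusted p = 1.3e-11, relative −8.25). TNFRSF17, the receptor for the survival factors BAFF and APRIL and a target of myeloma therapies, stood at 2.31, 0.39 and 0.734 FPKM in XG1, against 392, 472 and 465 FPKM in AMO1. CD38 and SLAMF7, the targets of myeloma antibodies, averaged 0.45 FPKM in XG1 and 25.5 FPKM in AMO1 for CD38, and 0.355 FPKM in XG1 and 45.1 FPKM in AMO1 for SLAMF7. CD79B, a signalling chain of the B cell receptor, stood at 0.956, 0.388 and 0.159 FPKM in XG1, against 111, 111 and 94.8 FPKM in AMO1, and all XG1 libraries were under 1 FPKM. CD40, the costimulatory receptor, was higher in XG1 on both scales, at 1.97, 1.36 and 3.95 FPKM in XG1, against 0.0732, 0.0975 and 0.0898 FPKM in AMO1, where all 3 AMO1 values are at the floor. TNFRSF17 overlaps NPIPB2. For each overlap named, these FPKM do not show which gene a read came from.

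The antibody assembly line was lower as well. 0 of 15 tested members were higher and 14 lower in XG1, from a list of 17 (on the relative scale 0 and 15, median log2 difference there −3.53). JCHAIN, the joining chain of secreted antibody, was measured at 8.32, 2.75 and 5.29 FPKM in XG1, against 1810.4, 2007 and 1955 FPKM in AMO1. MZB1, a chaperone of antibody folding, averaged 3.62 ± 2.24 FPKM in XG1, against 873 ± 77.4 FPKM in AMO1, and the secretory peptidyl isomerase FKBP11, which overlaps ARF3, averaged 6.01 ± 3.46 FPKM in XG1, against 268 ± 14.8 FPKM in AMO1. PIM2, a kinase that myeloma cells express strongly, averaged 179 ± 16.6 FPKM in XG1, against 2498 ± 101 FPKM in AMO1. SPCS1, of the signal peptidase, overlapped between groups (225 FPKM in XG1 and 247 FPKM in AMO1) and was called lower only on the relative scale. General chaperones of the endoplasmic reticulum and the unfolded protein response had 30 tested genes of 33, with 3 higher and 18 lower in XG1 (on the relative scale 2 and 27, median log2 difference there −1.36). HERPUD1, which helps clear misfolded proteins, averaged 24.2 ± 3.26 FPKM in XG1, against 203 ± 12.5 FPKM in AMO1. The translocon subunit SEC61A1, which overlaps RUVBL1, averaged 32.2 ± 2.91 FPKM in XG1, against 220.2 ± 22.5 FPKM in AMO1. The chaperone HSPA5 averaged 294 ± 24.3 FPKM in XG1, against 778 ± 80.5 FPKM in AMO1 (log2 difference −1.40, SE 0.15, adjusted p = 4.1e-07, relative −1.93), a smaller difference. KDELR3, a receptor that returns proteins to the endoplasmic reticulum, ran the other way with 14.8 ± 1.57 FPKM in XG1, against 1.88 ± 0.518 FPKM in AMO1, though it overlaps DDX17.

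Most factors of the red cell lineage were higher in XG1, and several were near or at the floor in AMO1. Of 18 listed genes 18 passed the filter, 16 higher and 0 lower in XG1 (on the relative scale 15 and 0, median log2 difference there 1.90). GATA1 stood at 31.3, 31.2 and 30.3 FPKM in XG1, against 0.0756, 0.0994 and 0.0901 FPKM in AMO1, where all 3 AMO1 values are at the floor. Its partners showed the same pattern: KLF1, which turns on adult globin, stood at 94.5, 91.6 and 113 FPKM in XG1, against 0.567, 0.309 and 0.0942 FPKM in AMO1 (log2 difference 6.26, SE 0.17, adjusted p = 5.8e-15, relative 5.69). LMO2, a bridge of the GATA1 complex, averaged 44.7 ± 4.13 FPKM in XG1, against 0.12 ± 0.0651 FPKM in AMO1, with 2 AMO1 libraries at the floor. TAL1, the DNA-binding partner of that bridge, averaged 3.49 ± 0.765 FPKM in XG1, against 0.144 ± 0.0751 FPKM in AMO1. NFE2, which binds the globin locus control region, stood at 100.3, 90.9 and 109.99 FPKM in XG1, against 0.228, 0.295 and 0.0933 FPKM in AMO1. GATA2 of earlier progenitors averaged 59.2 ± 5.58 FPKM in XG1, against 0.13 ± 0.0174 FPKM in AMO1, and GFI1B, a repressor needed in red cell and platelet precursors, 40.1 ± 3.15 FPKM in XG1, against 0.671 ± 0.372 FPKM in AMO1. MYB, a progenitor factor, was present in both lines with 119.5 ± 14.5 FPKM in XG1, against 29.1 ± 0.994 FPKM in AMO1. BCL11A and SOX6, repressors of fetal globin, averaged 8.11 FPKM in XG1 and 2.28 FPKM in AMO1 for BCL11A, and 7.31 FPKM in XG1 and 0.238 FPKM in AMO1 for SOX6. FOXO3 and MAFG were not called, with 7.96 FPKM in XG1 and 6.76 FPKM in AMO1 for FOXO3, and 35.1 FPKM in XG1 and 26.5 FPKM in AMO1 for MAFG.

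Globin genes gave the widest contrast. Of 9 tested, 8 were higher in XG1 and 1 lower on both scales. HBA1, HBA2 and HBZ were under 1 FPKM in every AMO1 library, so they passed the filter through XG1 and their direction was set by it. The fetal gene HBG1 stood at 1444, 1337 and 1563 FPKM in XG1, against 1.04, 1.31 and 0.476 FPKM in AMO1 (log2 difference 9.57, SE 0.27, adjusted p = 9.9e-15, relative 9.01). The alpha gene HBA2 stood at 608, 574 and 589 FPKM in XG1, against 0.0834, 0.107 and 0.797 FPKM in AMO1. HBZ, the embryonic alpha-like gene, averaged 212 ± 16.7 FPKM in XG1, against 0.0904 ± 0.0118 FPKM in AMO1, with 2 AMO1 libraries at the floor. These fetal, adult and embryonic genes shared the direction. The adult beta gene HBB averaged 16.8 ± 7.2 FPKM in XG1, against 0.199 ± 0.188 FPKM in AMO1, and HBD averaged 176 ± 16.5 FPKM in XG1, against 5.27 ± 4.23 FPKM in AMO1. HBE1, the embryonic beta-like gene, was the exception, with 59.3, 68.1 and 74.2 FPKM in XG1, against 103, 116 and 99.3 FPKM in AMO1 (log2 difference −0.65, SE 0.17, adjusted p = 0.00312, relative −1.17). All 3 AMO1 libraries were above all 3 XG1 libraries. HBG1 and HBG2, and HBA1 and HBA2, are near-identical copies, so their split is uncertain.

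Red cell membrane and blood group genes had 20 tested genes of 26, with 16 higher and 2 lower in XG1 (on the relative scale 16 and 3, median log2 difference there 1.07). GYPB, a glycophorin that carries blood group antigens, stood at 1256, 1293 and 1357 FPKM in XG1, against 0.802, 0.109 and 0.532 FPKM in AMO1, and RHAG, the Rh-associated glycoprotein, at 238, 221 and 267 FPKM in XG1, against 0.141, 0.264 and 0.0925 FPKM in AMO1. GYPB has close copies, so its reads cannot be assigned with certainty. The membrane skeleton gene ANK1 averaged 64.5 ± 10.9 FPKM in XG1, against 1.51 ± 0.255 FPKM in AMO1. XK, of the Kell complex, averaged 34.5 ± 3.92 FPKM in XG1, against 0.0934 ± 0.0125 FPKM in AMO1. EPOR differed little, with 4.29 ± 0.682 FPKM in XG1, against 3.2 ± 0.173 FPKM in AMO1 (log2 difference 0.32, SE 0.22, adjusted p = 0.2000, relative −0.08, adjusted p = 0.739), and did not pass on either scale. GYPC and the complement inhibitor CD59, which overlaps C11orf91, were lower in XG1, with 164 FPKM in XG1 and 331 FPKM in AMO1 for GYPC, and 10.4 FPKM in XG1 and 32.4 FPKM in AMO1 for CD59. The letters AGATAA, a form of the GATA factor motif, were searched on both strands of the RefSeq promoter windows (GRCh38.p14, 250 bases before to 50 after a gene start). They were in 7 of 16 tested list members with a window (43.8%). The share was 12.4% of all 27305 genes with one and 7.80% of the tested genes with one. Among other lists it was 40% of epithelial and stromal genes (2 of 5), 33.3% of myeloma drivers (2 of 6) and 26.7% of erythroid transcription factors (4 of 15). The only globin window held a match. These counts are small, and a high share is not particular to red cell membrane genes. A GYPB window, minus strand of chr4:144019331-144019630, is printed from 1 of the 7 red cell members with a match. GYPB was over 1000 FPKM in every XG1 library. The match, in capitals, lies 4 bases before the start used for this window and 39 before that of a second GYPB window.
GYPB: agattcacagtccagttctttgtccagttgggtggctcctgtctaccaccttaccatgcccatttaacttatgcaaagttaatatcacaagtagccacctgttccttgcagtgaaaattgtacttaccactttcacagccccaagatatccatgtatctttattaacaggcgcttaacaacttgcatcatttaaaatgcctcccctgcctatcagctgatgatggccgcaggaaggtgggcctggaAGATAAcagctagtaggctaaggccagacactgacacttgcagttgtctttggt

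Genes of heme synthesis and iron handling were split. Of 25 listed genes 25 passed the filter, 18 higher and 3 lower in XG1 (on the relative scale 14 and 5, median log2 difference there 0.42). ALAS2, the erythroid form of the first enzyme, stood at 5.43, 4.08 and 4.09 FPKM in XG1, against 0.0739, 0.0982 and 0.0897 FPKM in AMO1, with all 3 AMO1 values at the floor, and it overlaps APEX2 and PAGE2B. Its counterpart in other tissues, ALAS1, averaged 28.9 ± 3.19 FPKM in XG1, against 15.1 ± 2.83 FPKM in AMO1 and was called on the deposited scale only (log2 difference 0.90, SE 0.25, adjusted p = 0.00438, relative 0.39, adjusted p = 0.101). The transferrin receptor TFRC averaged 129 ± 5.65 FPKM in XG1, against 56.9 ± 7.78 FPKM in AMO1, and the iron exporter SLC40A1 11.4 ± 2.09 FPKM in XG1, against 0.0976 ± 0.00768 FPKM in AMO1. FECH, which inserts the iron, averaged 15.6 ± 1.84 FPKM in XG1, against 5.76 ± 0.345 FPKM in AMO1. Heme breakdown and storage ran the other way in part: HMOX1, heme oxygenase, averaged 0.688 ± 0.149 FPKM in XG1, against 10.5 ± 2.84 FPKM in AMO1, and the ferritin light chain FTL 2184 ± 36.6 FPKM in XG1, against 4336 ± 488 FPKM in AMO1, while the heavy chain FTH1, which overlaps BEST1, was higher with 1295 ± 40.8 FPKM in XG1, against 639 ± 47.5 FPKM in AMO1.

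Some genes of other blood and tissue lineages were also higher in XG1, while others were lower. The myeloid and stem cell list had 15 tested genes of 27, with 12 higher and 1 lower in XG1 (on the relative scale 11 and 2, median log2 difference there 1.93). ITGAM, the integrin alpha chain of granulocytes and macrophages, stood at 73.9, 61.1 and 80.1 FPKM in XG1, against 0.218, 0.193 and 0.0919 FPKM in AMO1, and its beta partner ITGB2 at 145, 133 and 133 FPKM in XG1, against 0.0855, 0.164 and 0.0965 FPKM in AMO1. CD33, a sialic acid receptor of myeloid cells, stood at 41.8, 51.6 and 48.2 FPKM in XG1, against 0.0811, 0.106 and 0.0941 FPKM in AMO1. FCGR1A, a receptor for antibody that has close copies and overlaps H2BC18, averaged 31.8 ± 4.35 FPKM in XG1, against 0.185 ± 0.0822 FPKM in AMO1. SPI1, the master factor of myeloid cells, stood at 5.64, 5.7 and 3.12 FPKM in XG1, against 0.08000, 0.105 and 0.0941 FPKM in AMO1, and LYZ averaged 12.2 FPKM in XG1 while standing at the floor in AMO1. CEBPB ran the other way with 45 ± 6.51 FPKM in XG1, against 99.2 ± 2.96 FPKM in AMO1. Megakaryocyte and platelet genes had 6 tested genes of 18, with 3 higher and 1 lower in XG1 (on the relative scale 3 and 1, median log2 difference there 0.50). GP1BB, of a platelet receptor, averaged 36.8 ± 5.75 FPKM in XG1, against 0.0895 ± 0.0121 FPKM in AMO1, while PF4, with 3.5 ± 2.47 FPKM in XG1, against 4.75 ± 0.444 FPKM in AMO1, was not called and FLI1, a factor of platelet and lymphoid cells, was lower with 0.239 ± 0.101 FPKM in XG1, against 17.3 ± 1.22 FPKM in AMO1. T and NK cell genes had 7 tested genes of 19, with 2 higher and 3 lower in XG1 (on the relative scale 2 and 4, median log2 difference there −0.42). CD7, a surface protein of these cells, averaged 45.5 ± 11 FPKM in XG1, against 0.0931 ± 0.0124 FPKM in AMO1, and PRF1, perforin, 2.33 ± 0.426 FPKM in XG1, against 0.2003 ± 0.132 FPKM in AMO1. LAT, an adaptor of the T cell receptor, was lower with 1.96 ± 0.445 FPKM in XG1, against 22.3 ± 1.66 FPKM in AMO1, and so was the receptor chain CD3E, which averaged 0.13 FPKM in XG1 and 1.14 FPKM in AMO1, with all 3 XG1 libraries at the floor. Epithelial and stromal genes had 10 tested genes of 19, with 6 higher and 2 lower in XG1 (on the relative scale 5 and 2, median log2 difference there 1.06). The adhesion molecule EPCAM stood at 49.9, 57 and 62.4 FPKM in XG1, against 0.485, 0.112 and 0.0984 FPKM in AMO1 and the keratin KRT18 at 78.9, 89.9 and 99.5 FPKM in XG1, against 1.37, 1.79 and 1.82 FPKM in AMO1. KRT19 averaged 23.5 FPKM in XG1 and stood at the floor in AMO1.

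Every tested MHC class II gene was lower in XG1 on both scales, 12 of 12 from a list of 13 (median relative log2 difference −4.60). These genes present peptides to helper T cells and are switched on by the coactivator CIITA. CIITA, which overlaps DEXI, stood at 0.217, 0.135 and 0.348 FPKM in XG1, against 22.5, 29.5 and 22.2 FPKM in AMO1 (log2 difference −4.37, SE 0.16, adjusted p = 2.9e-13, relative −4.41). HLA-DRA stood at 1.14, 0.326 and 2.05 FPKM in XG1, against 534, 566 and 478 FPKM in AMO1 and the invariant chain CD74 at 1.89, 0.319 and 0.776 FPKM in XG1, against 435, 488 and 423 FPKM in AMO1. The XG1 libraries varied among themselves and none came near the AMO1 values. HLA-DMA, which loads the peptide, averaged 0.314 ± 0.155 FPKM in XG1, against 40.7 ± 1.79 FPKM in AMO1. Reads of the classical HLA genes cannot be divided with certainty. The letters CCAAT, the box of the class II promoter that the factor NF-Y is known to bind, were searched in the same way. They were in 9 of 10 windows of tested members (90%), against 39.7% of all genes and 43.4% of tested genes with one. Mitosis genes (86.4%), cholesterol genes (80%), and serine, one-carbon and asparagine genes (80%) came close to this share. Endoplasmic reticulum chaperone genes followed at 77.8%. The only globin window also held these letters, and the remaining lists held less. A high share is therefore not particular to class II genes. The CD74 window, minus strand of chr5:150412861-150413160, shows the match in capitals, 53 bases before the start.
CD74: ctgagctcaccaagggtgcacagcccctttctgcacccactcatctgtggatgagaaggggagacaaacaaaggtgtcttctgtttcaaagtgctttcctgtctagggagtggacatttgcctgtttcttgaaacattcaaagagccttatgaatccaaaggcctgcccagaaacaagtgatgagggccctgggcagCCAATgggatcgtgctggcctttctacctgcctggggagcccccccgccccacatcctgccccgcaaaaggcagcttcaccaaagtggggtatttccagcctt

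MHC class I genes, which show peptides to cytotoxic T cells, were lower in XG1 in 17 of 17 cases on both scales (median relative log2 difference −2.84). HLA-B stood at 15, 8.99 and 8.02 FPKM in XG1, against 1648, 1802 and 1694 FPKM in AMO1, and HLA-C averaged 2.42 ± 1.4 FPKM in XG1, against 319 ± 12.5 FPKM in AMO1. The light chain B2M was lower as well, at 1144, 1035 and 1252 FPKM in XG1, against 4262, 4541 and 4650.5 FPKM in AMO1 (log2 difference −1.97, SE 0.20, adjusted p = 1.8e-07, relative −2.50). PSMB8, of the immunoproteasome, averaged 15.5 ± 4.16 FPKM in XG1, against 251 ± 17.8 FPKM in AMO1, and the peptide transporter TAP1 8.86 ± 1.41 FPKM in XG1, against 114 ± 14.1 FPKM in AMO1. NLRC5, the class I counterpart of CIITA, averaged 0.185 ± 0.0485 FPKM in XG1, against 4.04 ± 0.453 FPKM in AMO1. At the small end, the peptide trimming enzyme ERAP1 averaged 2.32 ± 0.953 FPKM in XG1, against 5.26 ± 1.01 FPKM in AMO1. The constitutive proteasome did not move in 1 direction: its list had 29 tested genes of 29, with 7 higher and 9 lower in XG1 (on the relative scale 4 and 17, median log2 difference there −0.35). A form of the interferon response element is 2 copies of GAAA with 2 bases of any kind between them. It was in 11 of 14 class I windows (78.6%), against 4.38% of all genes and 3.85% of tested genes with a window. The B2M window, plus strand of chr15:44711267-44711566, is printed for its 2 overlapping matches, in capitals, which begin 144 and 138 bases before the start.
B2M: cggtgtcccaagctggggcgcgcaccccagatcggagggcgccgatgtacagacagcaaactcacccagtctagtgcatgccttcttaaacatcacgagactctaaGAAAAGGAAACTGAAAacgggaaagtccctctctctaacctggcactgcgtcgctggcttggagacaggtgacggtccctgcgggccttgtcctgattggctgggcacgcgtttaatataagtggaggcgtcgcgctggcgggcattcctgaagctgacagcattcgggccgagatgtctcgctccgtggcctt

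Adhesion genes, some of which hold myeloma cells in marrow, were more often lower than higher in XG1. Of 30 listed genes 20 passed the filter, 5 higher and 11 lower in XG1 (on the relative scale 3 and 13, median log2 difference there −1.07). ITGA4, the alpha chain of the receptor for VCAM1, overlaps CERKL and averaged 3.27 ± 0.142 FPKM in XG1, against 11.3 ± 0.525 FPKM in AMO1. Its partner ITGB7, which overlaps ZNF740, averaged 4.85 ± 2.08 FPKM in XG1, against 84 ± 12.8 FPKM in AMO1. ICAM2, which overlaps PRR29, averaged 7.81 ± 2.9 FPKM in XG1, against 228 ± 23.8 FPKM in AMO1, the selectin ligand SELPLG 24.4 ± 4.88 FPKM in XG1, against 229 ± 21.8 FPKM in AMO1 and the hyaluronan receptor CD44 0.697 ± 0.259 FPKM in XG1, against 11.4 ± 1.5 FPKM in AMO1. The fibronectin receptor chain ITGA5 was higher, with 1.93 ± 0.2997 FPKM in XG1, against 0.0981 ± 0.024 FPKM in AMO1. Other leukocyte surface genes were mixed, with 22 tested genes of 30, with 11 higher and 5 lower in XG1 (on the relative scale 10 and 8, median log2 difference there 0.22). CD69, an early activation marker, averaged 52.1 ± 6.2 FPKM in XG1, against 0.223 ± 0.114 FPKM in AMO1, and CD86, a costimulatory ligand, 11.6 ± 1.05 FPKM in XG1, against 0.108 ± 0.0446 FPKM in AMO1. The pan-leukocyte phosphatase PTPRC was present in both lines, with 18.9 ± 1.21 FPKM in XG1, against 6.68 ± 0.614 FPKM in AMO1.

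Signalling genes divided by pathway. Cytokine receptors had 16 tested genes of 23, with 4 higher and 7 lower in XG1 (on the relative scale 4 and 10, median log2 difference there −0.78). The interleukin-6 receptor chain IL6R, the entry point of the main myeloma growth factor, averaged 2.1 ± 1.05 FPKM in XG1, against 7.96 ± 0.236 FPKM in AMO1 (log2 difference −1.58, SE 0.31, adjusted p = 3.0e-04, relative −1.90), while the shared signalling chain IL6ST averaged 4.71 ± 0.263 FPKM in XG1, against 1.93 ± 0.218 FPKM in AMO1. The common gamma chain IL2RG averaged 18.4 ± 3.29 FPKM in XG1, against 69.3 ± 9.79 FPKM in AMO1, and IL21R 0.202 ± 0.0407 FPKM in XG1, against 9.44 ± 1.24 FPKM in AMO1. Downstream, JAK-STAT genes had 20 tested genes of 20, with 14 higher and 4 lower in XG1 (on the relative scale 11 and 5, median log2 difference there 0.49). JAK2, which overlaps INSL6, stood at 8.28, 6.67 and 9.87 FPKM in XG1, against 0.554, 0.582 and 1.12 FPKM in AMO1, and STAT5A, which overlaps STAT5B, at 34.1, 33.4 and 40.4 FPKM in XG1, against 2.7, 3.4 and 2.83 FPKM in AMO1. The feedback inhibitors were far higher in XG1: SOCS1 stood at 197, 171 and 261 FPKM in XG1, against 0.974, 1.85 and 1.29 FPKM in AMO1, SOCS2 at 142, 146 and 153 FPKM in XG1, against 2.81, 3.14 and 3.93 FPKM in AMO1, and CISH, which overlaps MAPKAPK3, at 166, 161 and 210.5 FPKM in XG1, against 0.916, 1.07 and 0.935 FPKM in AMO1 (log2 difference 6.50, SE 0.15, adjusted p = 8.3e-16, relative 5.95). In each of these 3 genes the lowest XG1 library lay far above the highest AMO1 library. PIM1 averaged 1303 ± 98.8 FPKM in XG1, against 83.8 ± 0.383 FPKM in AMO1, whereas PIM3 and the phosphatase PTPN6, a brake on JAK2, were lower with 81.2 FPKM in XG1 and 522 FPKM in AMO1 for PIM3, and 0.85 FPKM in XG1 and 17.1 FPKM in AMO1 for PTPN6.

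The letters TTCNNNGAA, the form of site that STAT5 is known to bind, were in 1 of 18 windows of these genes (5.56%). The share was 9.38% of all genes and 8.22% of tested genes with a window. The member that held them was CISH, with 4 matches in the window on the minus strand of chr3:50611725-50612024, at 241, 230, 129 and 112 bases before the start, shown in capitals.
CISH: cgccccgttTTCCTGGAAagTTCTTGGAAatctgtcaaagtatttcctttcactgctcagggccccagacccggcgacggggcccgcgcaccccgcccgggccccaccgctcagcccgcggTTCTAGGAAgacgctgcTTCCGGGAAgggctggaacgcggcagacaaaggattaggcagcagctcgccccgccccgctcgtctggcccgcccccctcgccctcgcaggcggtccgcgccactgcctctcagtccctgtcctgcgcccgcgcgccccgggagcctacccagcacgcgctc

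Among tyrosine kinases the direction differed by gene. Receptor kinases had 17 tested genes of 35, with 12 higher and 2 lower in XG1 (on the relative scale 10 and 3, median log2 difference there 0.78), and nonreceptor kinases with their adaptors 26 tested genes of 30, with 11 higher and 10 lower in XG1 (on the relative scale 10 and 13, median log2 difference there −0.33). ABL1, a kinase of cytoskeleton and damage signalling, stood at 92.3, 72 and 93.5 FPKM in XG1, against 5.13, 7.56 and 5.64 FPKM in AMO1 (log2 difference 3.62, SE 0.19, adjusted p = 2.4e-11, relative 3.09). BCR, known as the fusion partner of ABL1 in chronic myeloid leukemia, was lower, at 1.72, 1.09 and 1.79 FPKM in XG1, against 7.07, 9.39 and 5.68 FPKM in AMO1, and it overlaps RSPH14. Gene values of this kind cannot show a fusion. The adaptors CRKL and GAB2 averaged 68.4 FPKM in XG1 and 9.06 FPKM in AMO1 for CRKL, and 33.3 FPKM in XG1 and 0.829 FPKM in AMO1 for GAB2. GAB2 overlaps USP35. SYK, which relays antigen and antibody receptor signals, stood at 11.8, 12.3 and 13.4 FPKM in XG1, against 0.246, 0.259 and 0.0956 FPKM in AMO1, and the focal adhesion kinase PTK2 averaged 17.6 ± 2.94 FPKM in XG1, against 0.111 ± 0.0294 FPKM in AMO1. Kinases lower in XG1 included FGR of the SRC family, with 0.168 ± 0.0727 FPKM in XG1, against 20.9 ± 4.85 FPKM in AMO1, and the insulin receptor INSR, with 1.22 ± 0.303 FPKM in XG1, against 17 ± 1.69 FPKM in AMO1. The MET receptor averaged 0.661 ± 0.416 FPKM in XG1, against 7.08 ± 0.975 FPKM in AMO1. FGFR3, which a myeloma translocation activates, averaged 4.65 ± 1.34 FPKM in XG1, against 0.139 ± 0.0531 FPKM in AMO1, and the receptor-like PTK7 36.4 ± 10.1 FPKM in XG1, against 0.243 ± 0.115 FPKM in AMO1.

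The RAS-MAPK and PI3K list had 34 tested genes of 38, with 13 higher and 15 lower in XG1 (on the relative scale 12 and 19, median log2 difference there −0.75). MAPK3, a kinase at its end, averaged 60.4 ± 6.04 FPKM in XG1, against 31.8 ± 2.42 FPKM in AMO1. The phosphatases that this pathway induces as its own brakes were lower in XG1: DUSP5 stood at 2.65, 2.8 and 4.43 FPKM in XG1, against 108, 108 and 108 FPKM in AMO1, DUSP6 at 0.58, 0.558 and 0.899 FPKM in XG1, against 24.5, 30.2 and 25.6 FPKM in AMO1, and DUSP2 averaged 0.253 ± 0.163 FPKM in XG1, against 26.2 ± 1.66 FPKM in AMO1. The Sprouty and Spred brakes ran the other way, with SPRY1 at 9.52 FPKM in XG1 and 2.98 FPKM in AMO1, and SPRED1 at 6.85 FPKM in XG1 and 1.5 FPKM in AMO1. The ETS factors ETV4 and ETV5, also induced by the pathway, were lower, with 22.5 FPKM in XG1 and 43.5 FPKM in AMO1 for ETV4, and 19.4 FPKM in XG1 and 43.1 FPKM in AMO1 for ETV5.

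**Figure D2:**
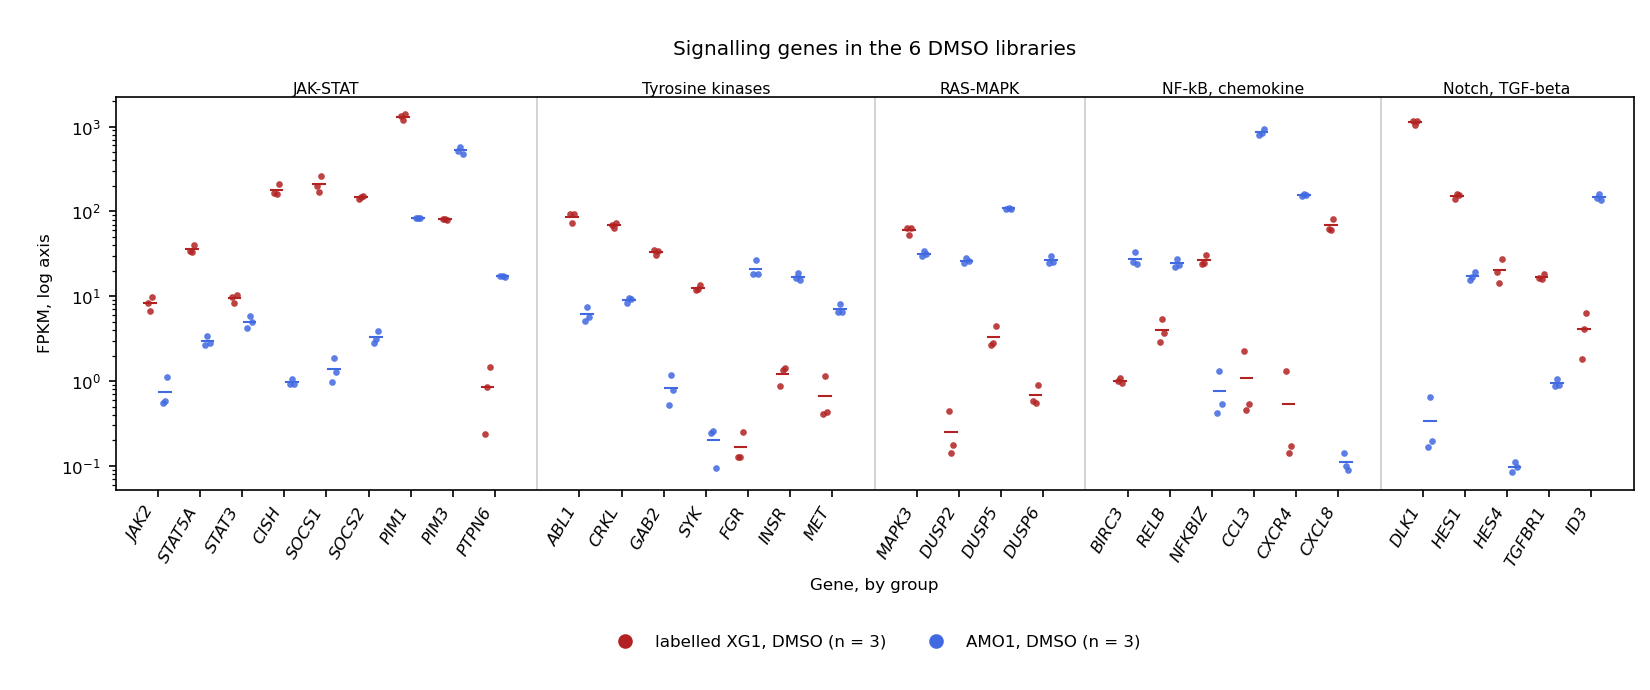
FPKM on a log axis of signalling genes in each DMSO library (points) with the group mean (line), XG1 in red left of AMO1 in blue. CISH, SOCS1 and SOCS2 are high in each XG1 library and low in each AMO1 library, while DUSP2, DUSP5 and DUSP6 stand the other way.

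NF-kB genes were mostly lower in XG1. Of 24 listed genes 23 passed the filter, 4 higher and 13 lower in XG1 (on the relative scale 3 and 17, median log2 difference there −0.92). BIRC3, a survival target, averaged 1.01 ± 0.0639 FPKM in XG1, against 27.7 ± 4.96 FPKM in AMO1, and RELB, of the noncanonical arm, 4.01 ± 1.28 FPKM in XG1, against 24.4 ± 2.65 FPKM in AMO1. The inhibitor NFKBIA averaged 113 ± 11.9 FPKM in XG1, against 173 ± 10.6 FPKM in AMO1. TNFAIP2 and NFKBIZ, which overlaps NXPE3, were higher with 38.8 FPKM in XG1 and 0.232 FPKM in AMO1 for TNFAIP2, and 26.5 FPKM in XG1 and 0.759 FPKM in AMO1 for NFKBIZ. Chemokines and cytokines had 20 tested genes of 34, with 7 higher and 10 lower in XG1 (on the relative scale 7 and 11, median log2 difference there −0.56). CCL3, which myeloma cells secrete and which has close copies, stood at 2.29, 0.461 and 0.537 FPKM in XG1, against 786, 836 and 929 FPKM in AMO1. CXCR4, which homes cells to marrow, stood at 1.3, 0.142 and 0.174 FPKM in XG1, against 153, 160.1 and 157 FPKM in AMO1. The neutrophil attractant CXCL8 stood at 62.4, 60.4 and 82.2 FPKM in XG1, against 0.143, 0.1002 and 0.0908 FPKM in AMO1, with 2 AMO1 libraries at the floor. The B cell survival ligand TNFSF13B was higher, with 64.9 ± 8.49 FPKM in XG1, against 1.47 ± 0.833 FPKM in AMO1.

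Notch, Wnt and TGF-beta genes had 34 tested genes of 45, with 19 higher and 7 lower in XG1 (on the relative scale 17 and 9, median log2 difference there 0.39). DLK1, an imprinted membrane protein of the Notch ligand kind, stood at 1161, 1051 and 1157 FPKM in XG1, against 0.169, 0.642 and 0.198 FPKM in AMO1. The Notch targets HES1 and HES4 averaged 153 FPKM in XG1 and 17.3 FPKM in AMO1 for HES1, and 20.4 FPKM in XG1 and 0.0975 FPKM in AMO1 for HES4. The receptor TGFBR1 averaged 16.8 ± 1.17 FPKM in XG1, against 0.953 ± 0.0969 FPKM in AMO1. ID3 and ID2, inhibitors of E proteins, were lower, with 4.11 FPKM in XG1 and 146 FPKM in AMO1 for ID3, and 2.22 FPKM in XG1 and 31.9 FPKM in AMO1 for ID2, while ID1 was not called. Other imprinted genes also stood at opposite extremes. H19, a noncoding RNA, stood at 352, 288 and 345 FPKM in XG1, against 0.0807, 0.104 and 0.103 FPKM in AMO1, and MEG3, a noncoding RNA of the DLK1 locus, averaged 172 ± 33.9 FPKM in XG1, against 0.154 ± 0.0214 FPKM in AMO1. MEST, which overlaps COPG2, averaged 0.267 ± 0.219 FPKM in XG1, against 16.8 ± 3.5 FPKM in AMO1 and PEG10 0.17 ± 0.0341 FPKM in XG1, against 13 ± 1.28 FPKM in AMO1.

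Cell cycle brakes differed in direction. The G1 list had 25 tested genes of 27, with 10 higher and 11 lower in XG1 (on the relative scale 7 and 11, median log2 difference there −0.19). CDKN2A, which holds back CDK4 and CDK6, stood at 1.05, 0.142 and 0.175 FPKM in XG1, against 44.5, 44.5 and 52.8 FPKM in AMO1 (log2 difference −5.10, SE 0.23, adjusted p = 3.0e-12, relative −5.18). MTAP, its neighbour on chromosome 9 and an enzyme of methionine salvage, stood at 0.14, 0.137 and 0.22 FPKM in XG1, against 7.14, 8.15 and 5.21 FPKM in AMO1. MTAP was under 1 FPKM in every XG1 library, and CDKN2A in 2 of the 3. The CDK inhibitor CDKN1A and the ubiquitin ligase MDM2 were also lower and averaged 2.46 FPKM in XG1 and 162 FPKM in AMO1 for CDKN1A, and 14.6 FPKM in XG1 and 94.3 FPKM in AMO1 for MDM2. MDM2 overlaps CPM. The cyclin CCND2 averaged 10.4 ± 0.421 FPKM in XG1, against 86.4 ± 6.06 FPKM in AMO1 and CCND3 125 ± 11.2 FPKM in XG1, against 51.9 ± 1.78 FPKM in AMO1. CDKN1C, an inhibitor that is imprinted, was higher with 67.1 ± 5.87 FPKM in XG1, against 0.785 ± 0.58 FPKM in AMO1. MYC was not called, with 115 ± 16.2 FPKM in XG1, against 82.2 ± 6.94 FPKM in AMO1 (log2 difference 0.48, SE 0.38, adjusted p = 0.285, relative −0.04, adjusted p = 0.929). CDK7, the target of the inhibitor, averaged 28 ± 10.3 FPKM in XG1, against 16.9 ± 1.85 FPKM in AMO1 and overlaps CCDC125. It passed on the deposited scale only (log2 difference 0.64, SE 0.26, adjusted p = 0.0413, relative 0.14, adjusted p = 0.645), and that call was lost without XG1 replicate 2 (adjusted p = 0.0635) or 3 (0.236), or without AMO1 replicate 1 (0.109) or 2 (0.0887). Its cyclin CCNH, which overlaps RASA1, behaved alike (log2 difference 1.08, SE 0.27, adjusted p = 0.00207, relative 0.56, adjusted p = 0.0723). The assembly factor MNAT1 passed on neither scale (log2 difference 0.54, SE 0.33, adjusted p = 0.162, relative 0.04, adjusted p = 0.904).

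Mitosis genes were present in both lines, with 27 tested genes of 27, with 15 higher and 5 lower in XG1 (on the relative scale 9 and 10, median log2 difference there 0.08), so the counts by direction depended on the scale. UBE2C, which feeds ubiquitin to the anaphase-promoting complex, was the exception in size, at 7.48, 5.78 and 2.8 FPKM in XG1, against 1054, 1233 and 1142 FPKM in AMO1. CDC25B averaged 15.6 ± 1.92 FPKM in XG1, against 119.6 ± 12.2 FPKM in AMO1, and the checkpoint kinase BUB1B 41.8 ± 2.36 FPKM in XG1, against 8.63 ± 1.02 FPKM in AMO1. BCL2 family genes had 20 tested genes of 21, with 8 higher and 7 lower in XG1 (on the relative scale 7 and 8, median log2 difference there −0.28). The survival proteins differed by member: MCL1, on which plasma cells depend, averaged 154 ± 4.55 FPKM in XG1, against 940.3 ± 40.04 FPKM in AMO1 and BCL2 4.04 ± 0.435 FPKM in XG1, against 17.7 ± 2.84 FPKM in AMO1, while BCL2L1 was higher with 7.92 ± 0.491 FPKM in XG1, against 0.903 ± 0.357 FPKM in AMO1. The mitophagy gene BNIP3, which overlaps PPP2R2D, stood at 86.7, 90.6 and 101 FPKM in XG1, against 0.167, 0.428 and 0.0975 FPKM in AMO1.

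Metabolic genes differed gene by gene. Glycolysis and glucose transport had 27 tested genes of 27, with 11 higher and 8 lower in XG1 (on the relative scale 6 and 12, median log2 difference there −0.20). HK1, which traps glucose, stood at 86.5, 83.2 and 97.8 FPKM in XG1, against 13, 13.7 and 11 FPKM in AMO1, and the lactate carrier SLC16A1 at 99.9, 103 and 126 FPKM in XG1, against 21.1, 24.8 and 19.5 FPKM in AMO1. The muscle form of phosphofructokinase, PFKM, was lower, at 13.2, 13.9 and 13.8 FPKM in XG1, against 70.3, 76.5 and 77.1 FPKM in AMO1, and overlaps SENP1. LDHA passed on the deposited scale only, with 197 ± 33.1 FPKM in XG1, against 112 ± 2.4 FPKM in AMO1. Pentose phosphate and glycogen genes had 15 tested genes of 16, with 8 higher and 5 lower in XG1 (on the relative scale 6 and 5, median log2 difference there 0.03). PGM1, which feeds glucose to glycogen, averaged 2.28 ± 1.65 FPKM in XG1, against 14.1 ± 0.711 FPKM in AMO1, and the glycogen phosphorylase PYGL 2.44 ± 0.769 FPKM in XG1, against 0.12 ± 0.0365 FPKM in AMO1.

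In the citric acid cycle list 7 of 25 tested members were higher and 10 lower in XG1, from a list of 27 (on the relative scale 3 and 13, median log2 difference there −0.83). IDH2, the mitochondrial isocitrate dehydrogenase that makes NADPH, stood at 176, 160.4 and 182 FPKM in XG1, against 11, 15.2 and 13.9 FPKM in AMO1 (log2 difference 3.61, SE 0.17, adjusted p = 5.6e-12, relative 3.08), while OGDH averaged 8.49 ± 0.966 FPKM in XG1, against 30.5 ± 2.16 FPKM in AMO1. Respiratory chain genes showed how much the scale matters for small differences, with 46 tested genes of 46, with 10 higher and 14 lower in XG1 (on the relative scale 3 and 33, median log2 difference there −0.52). Cytochrome c, CYCS, was lower on both scales with 49.6 ± 7.06 FPKM in XG1, against 121 ± 10.2 FPKM in AMO1, and ATP5F1 of ATP synthase was higher with 304 ± 11.9 FPKM in XG1, against 98.3 ± 4.79 FPKM in AMO1. Ribosomal protein genes behaved likewise, with 66 tested genes of 66, with 14 higher and 18 lower in XG1 (on the relative scale 6 and 45, median log2 difference there −0.49). RPL30 of the large subunit was highest in XG1 relative to AMO1, with 8090.2 ± 664 FPKM in XG1, against 2818 ± 415 FPKM in AMO1, and RPS7 of the small subunit lowest, with 734 ± 79.9 FPKM in XG1, against 2168 ± 174 FPKM in AMO1.

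Sterol genes were mostly lower in XG1. Of 27 listed genes 27 passed the filter, 4 higher and 15 lower in XG1 (on the relative scale 4 and 20, median log2 difference there −1.03). INSIG1, a sterol-responsive brake on synthesis, stood at 19.4, 17.2 and 15.7 FPKM in XG1, against 163, 171 and 159 FPKM in AMO1, and HMGCS1, an early enzyme of the pathway, at 26.7, 23.7 and 24.7 FPKM in XG1, against 151, 179 and 127 FPKM in AMO1. FDPS and EBP averaged 45.4 FPKM in XG1 and 207 FPKM in AMO1 for FDPS, and 38 FPKM in XG1 and 215 FPKM in AMO1 for EBP. SQLE, squalene epoxidase, was higher, with 72.1 ± 11.3 FPKM in XG1, against 30.9 ± 2.97 FPKM in AMO1. Fatty acid genes had 25 tested genes of 29, with 8 higher and 9 lower in XG1 (on the relative scale 7 and 14, median log2 difference there −0.31). The lipase LIPE averaged 0.221 ± 0.127 FPKM in XG1, against 14.4 ± 1.42 FPKM in AMO1, the carrier FABP5 19 ± 3.16 FPKM in XG1, against 101 ± 20.6 FPKM in AMO1 and the elongase ELOVL5 149 ± 10.2 FPKM in XG1, against 38 ± 6.91 FPKM in AMO1.

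Amino acid transporters were mostly lower in XG1, with 20 tested genes of 21, with 1 higher and 13 lower in XG1 (on the relative scale 1 and 15, median log2 difference there −1.54). SLC7A5, the leucine carrier, stood at 17.2, 16.5 and 17.1 FPKM in XG1, against 105, 112 and 97.1 FPKM in AMO1, and the neutral amino acid carrier SLC1A4 averaged 2.1 ± 0.855 FPKM in XG1, against 18.6 ± 1.65 FPKM in AMO1. Serine and one-carbon genes had 20 tested genes of 22, with 6 higher and 7 lower in XG1 (on the relative scale 5 and 12, median log2 difference there −0.54). Asparagine synthetase ASNS averaged 46.1 ± 6.45 FPKM in XG1, against 191 ± 9.65 FPKM in AMO1 and GLDC, of glycine cleavage, 0.135 ± 0.0153 FPKM in XG1, against 8.13 ± 0.178 FPKM in AMO1, while PHGDH, the entry to serine synthesis, was higher with 40.4 ± 1.36 FPKM in XG1, against 20.1 ± 1.59 FPKM in AMO1. In the redox list 12 of 30 tested members were higher and 8 lower in XG1, from a list of 31 (on the relative scale 11 and 16, median log2 difference there −0.43). GPX1, the main cytosolic glutathione peroxidase, stood at 0.451, 0.991 and 1.77 FPKM in XG1, against 259.8, 282 and 269.6 FPKM in AMO1, and catalase, CAT, at 53.7, 50.8 and 60.1 FPKM in XG1, against 9.08, 9.18 and 8.91 FPKM in AMO1. CBS, the first step from homocysteine to cysteine, stood at 129.8, 118 and 157 FPKM in XG1, against 0.0893, 0.256 and 0.235 FPKM in AMO1. GPX3, the secreted glutathione peroxidase, stood at 32.2, 28.2 and 41.5 FPKM in XG1, against 0.0752, 0.099 and 0.0899 FPKM in AMO1, where all 3 AMO1 values are at the floor. GPX1 was thus lower and CAT, CBS and GPX3 higher in XG1.

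Purine and pyrimidine genes had 29 tested genes of 29, with 12 higher and 5 lower in XG1 (on the relative scale 8 and 10, median log2 difference there −0.23). The salvage enzyme HPRT1 stood at 62.3, 73.9 and 93.1 FPKM in XG1, against 7.36, 8.59 and 6.82 FPKM in AMO1, GMPS averaged 64.4 ± 2.85 FPKM in XG1, against 13.8 ± 0.0563 FPKM in AMO1, and RRM2, of ribonucleotide reductase, was lower with 47.9 ± 1.5 FPKM in XG1, against 196 ± 9.91 FPKM in AMO1. Polyamine genes had 11 tested genes of 11, with 5 higher and 3 lower in XG1 (on the relative scale 4 and 4, median log2 difference there −0.07). ODC1, the entry step, averaged 160.5 ± 6.11 FPKM in XG1, against 676 ± 66.2 FPKM in AMO1 and SAT1, which drives breakdown, 238 ± 5.38 FPKM in XG1, against 19 ± 2.25 FPKM in AMO1, so they moved in opposite directions. ABC transporters had 16 tested genes of 19, with 9 higher and 1 lower in XG1 (on the relative scale 7 and 3, median log2 difference there 0.24). The efflux pump ABCB1, known from multidrug resistance and overlapping RUNDC3B, averaged 0.216 ± 0.0696 FPKM in XG1, against 2.85 ± 0.16 FPKM in AMO1, and ABCC4 was higher with 17.3 ± 2.02 FPKM in XG1, against 5.25 ± 0.838 FPKM in AMO1.

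**Figure D3:**
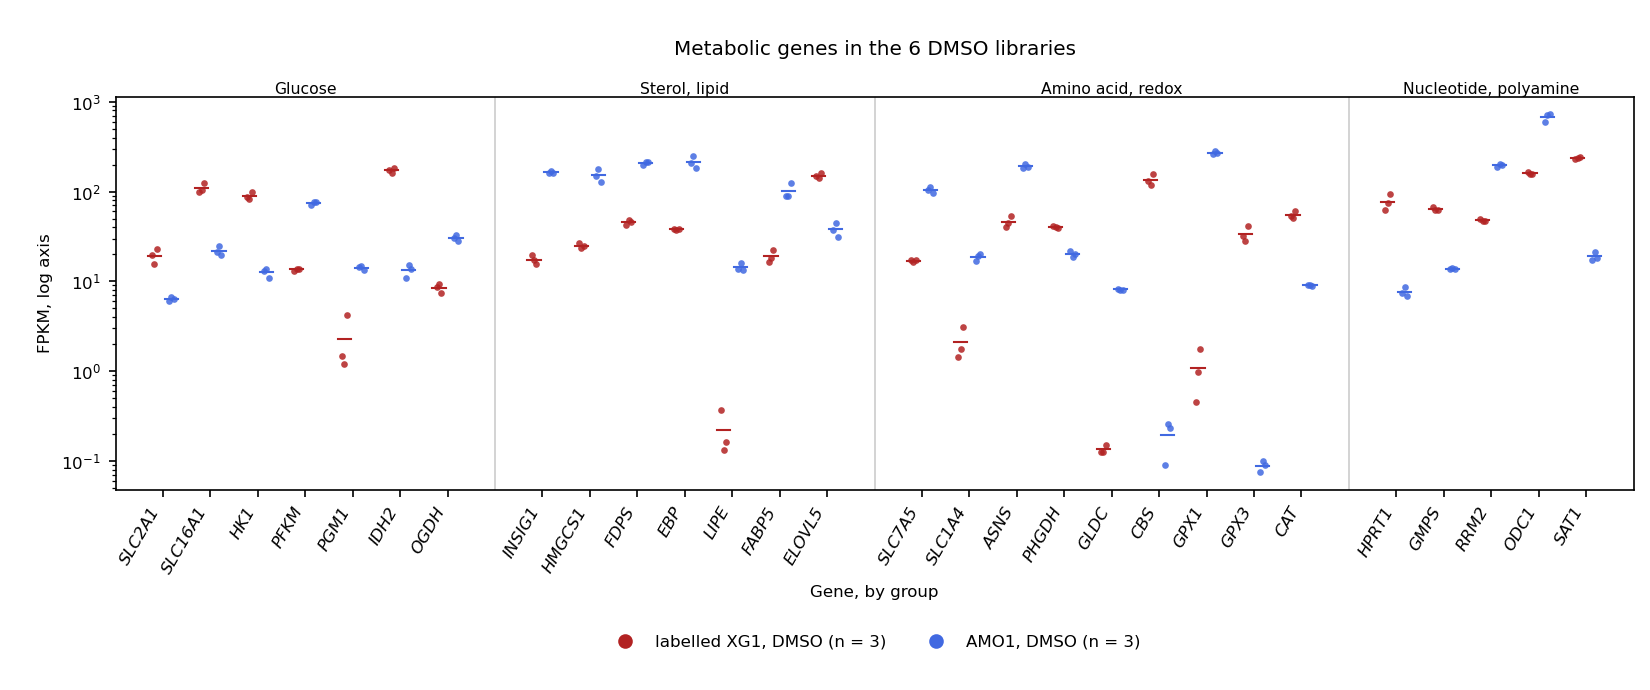
FPKM on a log axis of metabolic genes in each DMSO library (points) with the group mean (line), XG1 in red left of AMO1 in blue. CBS and GPX3 are near or at the floor in AMO1, and GPX1, GLDC and LIPE are low in XG1.

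Tumour antigens and drivers were mixed. Cancer-testis antigens had 12 tested genes of 28, with 4 higher and 3 lower in XG1 (on the relative scale 3 and 5, median log2 difference there −0.41). PRAME stood at 447, 414 and 476 FPKM in XG1, against 29.2, 37.9 and 26.9 FPKM in AMO1 and CTAG2 at 7.03, 1.2 and 1.37 FPKM in XG1, against 1291, 1410.3 and 1281 FPKM in AMO1. MAGEC1 averaged 7.87 ± 0.848 FPKM in XG1, against 0.444 ± 0.151 FPKM in AMO1. Reads of the CTAG and MAGEA copies cannot be divided with certainty. Myeloma drivers had 11 tested genes of 14, with 4 higher and 5 lower in XG1 (on the relative scale 2 and 7, median log2 difference there −0.63). CCND1 averaged 0.642 ± 0.367 FPKM in XG1, against 7.8 ± 1.02 FPKM in AMO1, and CRBN, the target of the thalidomide class of drugs, which overlaps TRNT1, 21.7 ± 3.18 FPKM in XG1, against 11 ± 1.49 FPKM in AMO1.

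**Figure D4:**
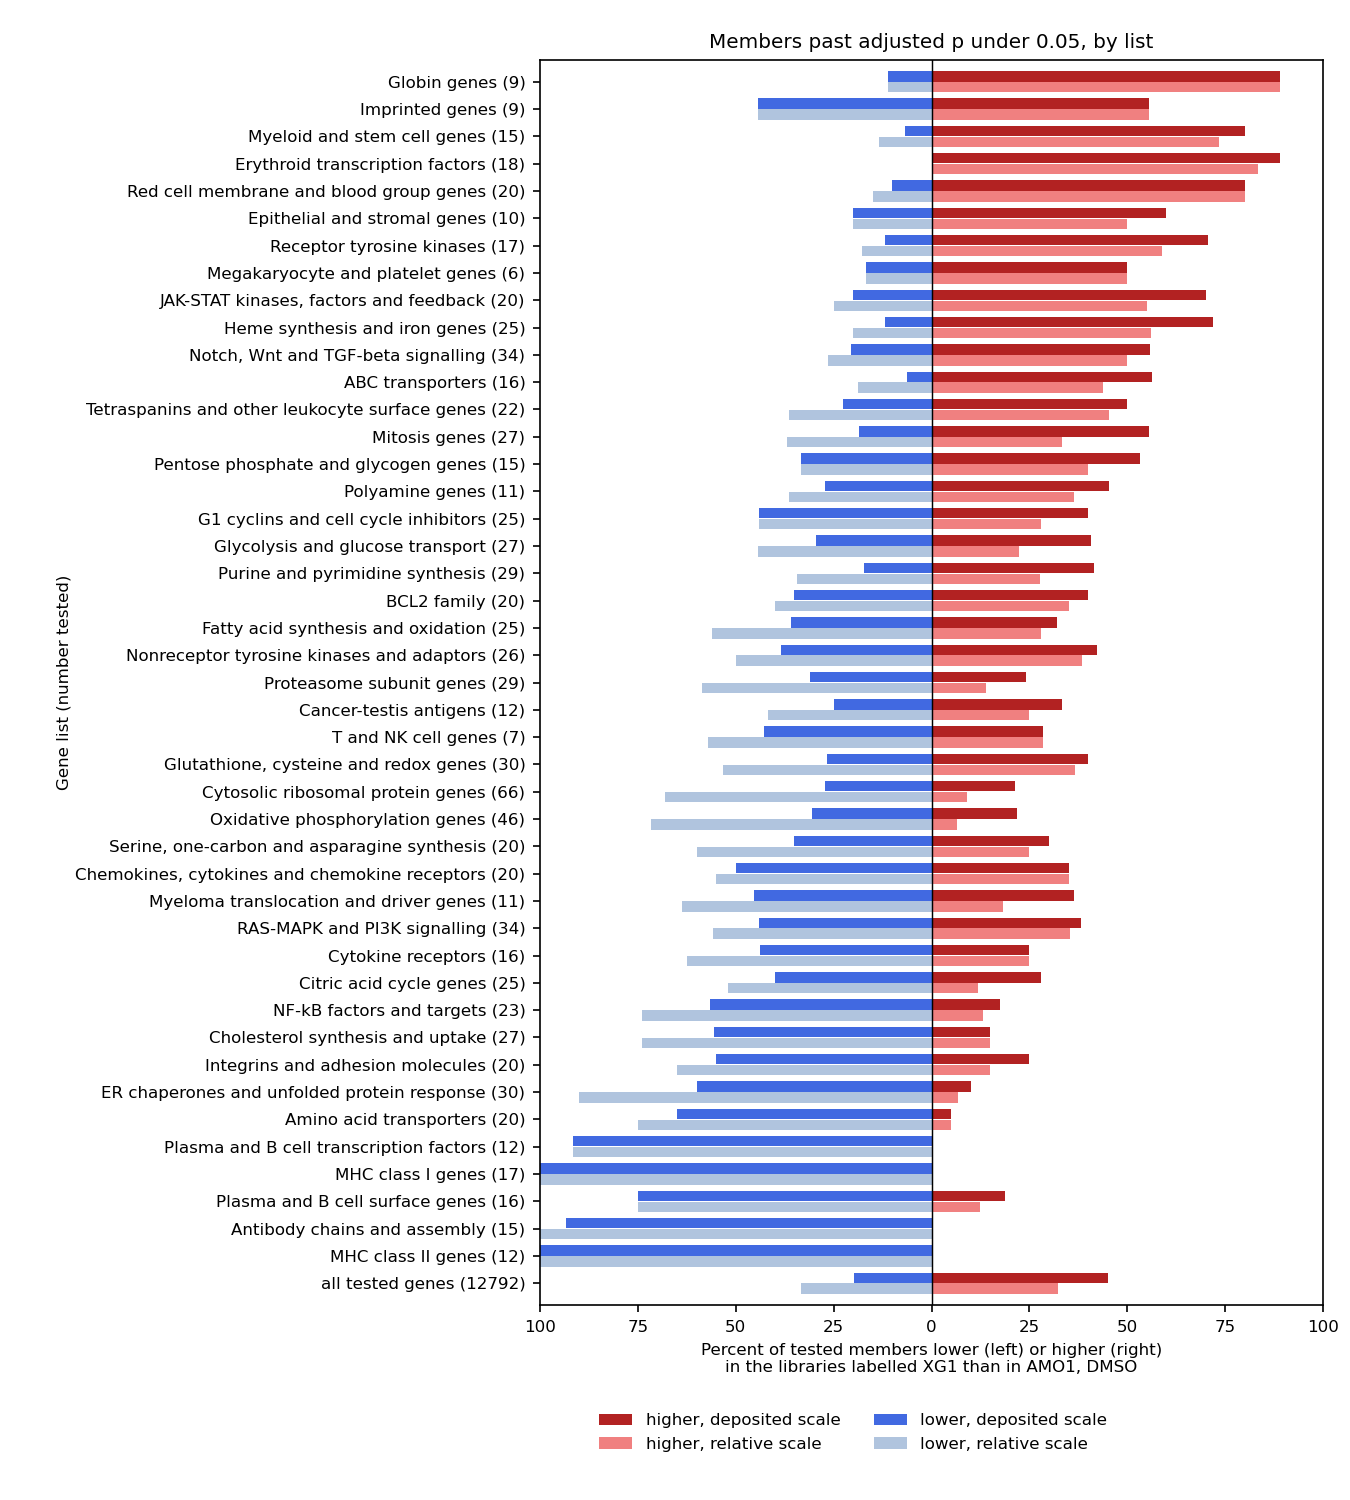
Percent of tested members of each list called lower (left) or higher (right) in XG1 than in AMO1 at an adjusted p under 0.05, on the deposited scale (dark) and the relative scale (light), with all 12792 tested genes at the bottom. Lists are ordered by their median relative difference: globin genes are at the top and MHC class II genes above the row of all genes, while oxidative phosphorylation and ribosomal protein genes change shares most between scales.

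The difference between the lines was measured again in the 6 libraries at each dose, within the same fit and over the same filtered genes as in DMSO. At 100 nM 6617 genes (51.7%) were higher and 1984 (15.5%) lower in XG1, and at 1000 nM 8287 (64.8%) and 1364 (10.7%). Summed FPKM of all genes in AMO1 was 1442943 to 1553906 in DMSO, 919237 to 983439 at 100 nM and 431965 to 686266 at 1000 nM. In XG1 it was 1221590 to 1425717, 994329 to 1146629 and 902520 to 1036930 in the same order. The part of these sums in the counts was not tested. On the relative scale the shares were 32.9% higher and 33.7% lower at 100 nM, and 33.7% in each direction at 1000 nM. The size factors hold the median difference of all tested genes small (0.005 at 100 nM and 0.01 at 1000 nM). Near-equal shares follow largely from this and do not show that the same genes were called. Of the genes called higher in DMSO on this scale, 80.7% were called higher again at 100 nM and 80.9% at 1000 nM. Of those called lower, 83.9% and 80.6% were called lower again. Called in the opposite direction were 16 of the higher and 91 of the lower at 100 nM, and 30 and 130 at 1000 nM. Of the 483 genes higher in XG1 by a log2 difference of 3 or more in DMSO, 464 were called higher on both scales at 100 nM and 469 at 1000 nM. Of the 272 lower by as much, 267 and 260 were called lower again. Globin genes had a median relative log2 difference of 6.16 in DMSO, 6.56 at 100 nM and 6.27 at 1000 nM. For MHC class II genes it was −4.60 in DMSO, −4.80 at 100 nM and −4.51 at 1000 nM. Mitosis genes had medians of 0.08 in DMSO, 1.42 at 100 nM and 1.13 at 1000 nM. Megakaryocyte and platelet genes had 0.50, 0.54 and −0.25 in the same order, and amino acid transporters −1.54, −0.53 and −0.16.

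**Figure D5:**
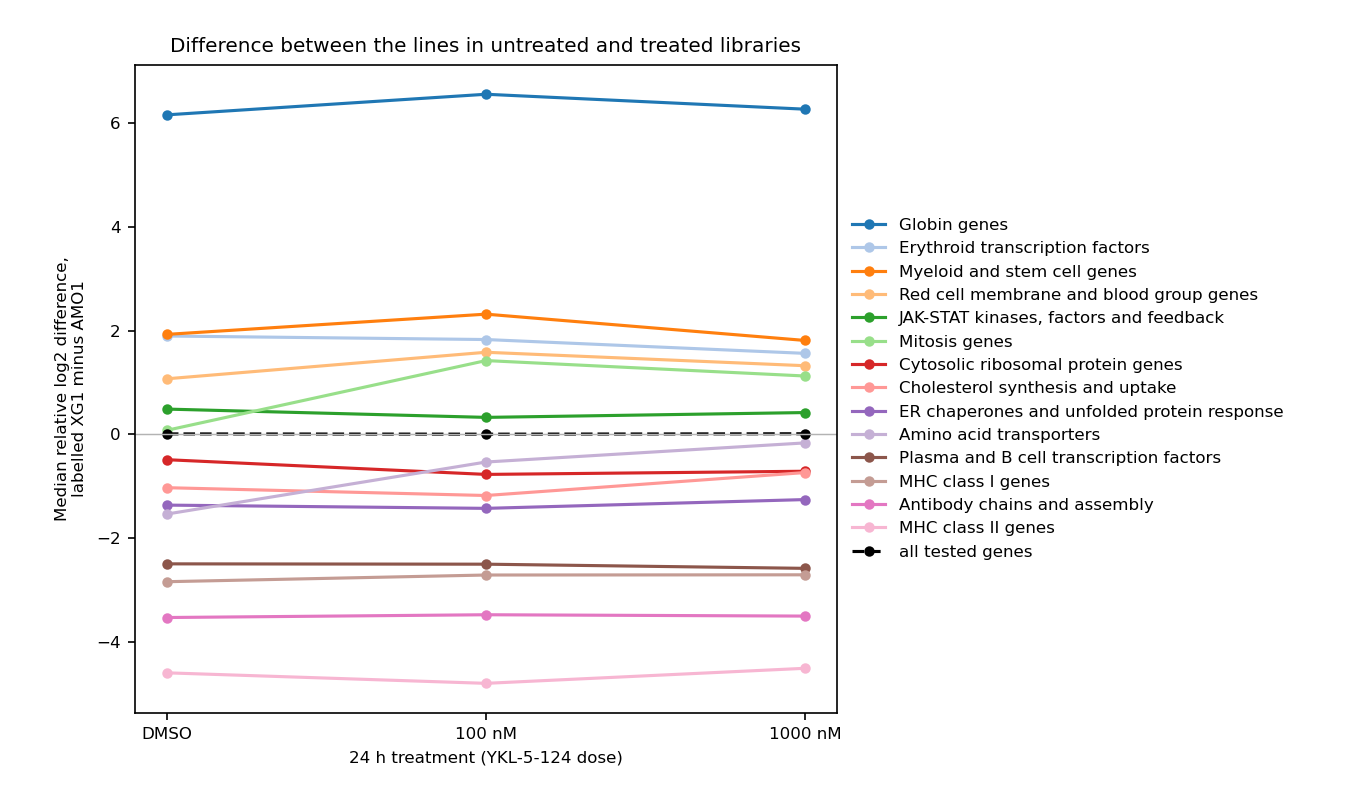
Median relative log2 difference, XG1 minus AMO1, of the tested members of 14 lists and of all tested genes (dashed) in DMSO and after 24 h at 100 nM and 1000 nM of YKL-5-124, with 3 libraries a line at each dose. Globin genes stay highest and MHC class II genes lowest at each dose, while mitosis genes and amino acid transporters shift upward.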

How the data were processed

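RNA was measured in cell line libraries made with a 3′ kit (QuantSeq). The submitters' processing notes name HISAT2, hg19 and Cuffnorm, without versions, and the strand setting was not given in the sources used here. Each deposited file held FPKM for 26249 genes and 92 spike-ins. Summed spike-ins were 176328 to 178689 FPKM in XG1 and 172823 to 176214 FPKM in AMO1, so rescaling to them appears likely from the values but is not described. The files held 0 zeros, and 5120 genes shared the most often listed value, the floor, in each library. Read depth is unknown, no counting error can be given, and the number of replicates limits the precision. The labels do not say whether replicates were separate cultures, so p-values measure only the spread between these samples.

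All 18 libraries were fitted in 6 groups with limma 3.58.1 (R 4.3.3; linear model, mean-dependent prior, two-sided moderated tests) on log2(FPKM+1), a scale that understates differences of low genes. The test was checked on simulated data. The members and lists were chosen with earlier results of these data known. Named were members of a list with the largest differences or a defining role, the 15 highest and 15 lowest protein-coding genes outside the lists, and CDK7, IRF4, MYC, ABL1, BCR, CDKN2A and MTAP. Some genes of these sets are not reported here. Overlaps between genes come by name from RefSeq (GRCh38.p14), as do the promoter windows, and no gene coordinates in the files' build were used. Alternatives covered scale, pseudocount, filter, samples fitted, prior, replicate block and each replicate left out. Replicate numbers were not treated as pairs.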

Additional observations from a re-analysis of the deposited data

Results flagged for a closer look

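The difference between the lines was compared at each dose with that in DMSO for the cell type markers and the genes named in every case. It differed, by the interaction term of the limma fit on both scales, for 10 genes. Each change below is the XG1 minus AMO1 difference at the dose minus that in DMSO (log2), on the deposited scale unless stated. Means, where given, are of 3 libraries. None is weighed here.

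KLF1, the red cell factor, changed by −1.23 at 100 nM (adjusted p = 0.00540) and −1.68 at 1000 nM (adjusted p = 1.2e-04). It averaged 99.6 FPKM in DMSO, 49.1 FPKM at 100 nM and 29.9 FPKM at 1000 nM in XG1, and stayed under 1 FPKM on average in AMO1. HBZ changed by −0.73 at 1000 nM (adjusted p = 0.0221). ITGAM changed by −0.76 at 100 nM (adjusted p = 0.0328) and −0.88 at 1000 nM (adjusted p = 0.00339). EPCAM changed by −1.34 at 100 nM (adjusted p = 0.0138) and −1.01 at 1000 nM (adjusted p = 0.0177), and KRT19 by −1.17 at 1000 nM (adjusted p = 0.00251). In all of these the level lay in XG1, and AMO1 stayed under 1 FPKM on average.

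IRF4 changed by 1.32 at 1000 nM (adjusted p = 0.00132), but by 0.52 on the relative scale (adjusted p = 0.0314). Its mean in AMO1 was 77.5 FPKM in DMSO, 44.8 FPKM at 100 nM and 24.4 FPKM at 1000 nM, while XG1 stayed under 1 FPKM. CDKN2A changed by 1.76 at 1000 nM (adjusted p = 8.6e-04) and MTAP by 1.42 (adjusted p = 2.7e-04), again with the level in AMO1. On the relative scale these 1000 nM changes were also smaller, 0.94 for CDKN2A (adjusted p = 0.0167) and 0.75 for MTAP (adjusted p = 0.00947). KRT18 changed by 1.11 at 100 nM (adjusted p = 0.0212) and 1.31 at 1000 nM (adjusted p = 0.00184). From DMSO to 1000 nM its mean went from 89.5 to 108 FPKM in XG1 and from 1.66 to 0.295 FPKM in AMO1. PF4 changed by 2.29 at 100 nM (adjusted p = 0.0249), where it averaged 11.5 FPKM in XG1 and 2.63 FPKM in AMO1.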

How the results depend on the processing

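In DMSO 8292 genes were called in total. With no filter on low values the total was 15163, with 12389 higher in XG1, and the floor was 0.117 to 0.140 FPKM in XG1 libraries and 0.0727 to 0.0971 FPKM in AMO1 libraries. On the relative scale 4279 genes were lower in DMSO. At 100 nM that scale gave 4212 higher and 4306 lower, and at 1000 nM 4314 higher and 4306 lower. Another size factor, taken over genes at 1 FPKM or more in every library and chosen after seeing the data, gave 4900 higher and 3582 lower in DMSO. Leaving out 1 library at a time gave totals of 7514 to 7897, 5038 to 5647 higher and 2166 to 2476 lower. Other pseudocounts, a filter at 5 FPKM, the 6 DMSO libraries alone and a prior without trend kept each count within 1.5 times. Deviations of same-numbered replicates correlated at −0.03, −0.13 and 0.05. Those of differently numbered replicates ran from −0.13 to 0.17. With so few libraries these values show no pairing by number and cannot exclude one. With the replicate number as a block 8185 genes were called in DMSO (5681 higher and 2504 lower), 8521 at 100 nM and 9585 at 1000 nM. Of 88 list counts (higher and lower in each list), the relative scale moved 21 by over 1.5 times, the filter at 5 FPKM 12, and the block 0. Of 237 named genes with a test, 226 kept their direction and their side of the threshold in every setting run that tested them. CDK7 lost its call on the relative scale, with no filter (adjusted p = 0.0526), with the block (0.0536) and without 4 of the 6 libraries in turn. MYC was called in the 6 DMSO libraries alone (adjusted p = 0.00797). The causes were not tested. The unknown depth limits what can be said of genes near the floor.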

Other observations

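Genes in none of the lists gave differences as large as the lineage genes. The 15 protein-coding genes highest in XG1 relative to AMO1 included the antiviral membrane protein IFITM2, which has close copies, with 659 ± 58.6 FPKM in XG1, against 0.337 ± 0.221 FPKM in AMO1 (log2 difference 8.96, SE 0.19, adjusted p = 2.4e-16, relative 8.39), and the neuropeptide GAL, with 819 ± 51.7 FPKM in XG1, against 0.748 ± 0.578 FPKM in AMO1. The lipoprotein genes APOC1 and APOE stood together, with 1225 FPKM in XG1 and 4.73 FPKM in AMO1 for APOC1, and 289.7 FPKM in XG1 and 0.603 FPKM in AMO1 for APOE. They neighbour each other in the genome. PYCARD, the adaptor of the inflammasome, stood at 214, 220.4 and 223 FPKM in XG1, against 0.0921, 0.413 and 0.101 FPKM in AMO1, and the lysosomal protease CTSL averaged 196 ± 18.7 FPKM in XG1, against 0.191 ± 0.182 FPKM in AMO1. ALDH1A1, which makes retinoic acid, averaged 209 ± 36.4 FPKM in XG1, against 0.204 ± 0.0708 FPKM in AMO1, and the inducible heat shock gene HSPA1A, which has a near-identical copy, 333 ± 29.1 FPKM in XG1, against 0.396 ± 0.107 FPKM in AMO1. HINT1 averaged 2544 ± 19.5 FPKM in XG1, against 6.87 ± 1.88 FPKM in AMO1. The others were LAPTM4B, MGST2, which overlaps MAML3, SAMSN1, BEX4, ITM2A and TMEM98.

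Among the 15 lowest were SRGN, the proteoglycan of secretory granules, with 2.65 ± 1.57 FPKM in XG1, against 617 ± 67.4 FPKM in AMO1. IFI16, a sensor of foreign DNA that overlaps AIM2 and PYDC5, stood at 1.5, 0.38 and 0.892 FPKM in XG1, against 167, 186 and 169 FPKM in AMO1. ALOX5AP, needed to make leukotrienes, averaged 1.19 ± 1.13 FPKM in XG1, against 181 ± 17.9 FPKM in AMO1, and the bile acid carrier FABP6 0.524 ± 0.648 FPKM in XG1, against 268 ± 33 FPKM in AMO1. UCHL1, a ubiquitin hydrolase best known from neurons, averaged 0.945 ± 0.773 FPKM in XG1, against 238 ± 25.4 FPKM in AMO1, and AKR1B1, aldose reductase, 0.698 ± 0.54 FPKM in XG1, against 222 ± 19.1 FPKM in AMO1. SNURF, of an imprinted locus shared with SNRPN, averaged 0.641 ± 0.86 FPKM in XG1, against 161 ± 11.9 FPKM in AMO1, and the germ cell factor SOHLH1 0.924 ± 0.581 FPKM in XG1, against 191 ± 40.8 FPKM in AMO1. Also among them were OCIAD2, TRAF3IP3, which overlaps C1orf74, TSTD1, KCNS3, TOX2 and CRIP1.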
